A study of Mus musculus with 20 samples.

Results

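The genes described here are Slc4a1, Alas2, Slc25a37, Bpgm and Hba-a1, 5 genes of red blood cells and their precursors, measured in mouse heart ventricle. They were taken as every probe set whose array annotation holds exactly 1 of these symbols, which gave 9 of the 45037 probe sets left after removal of controls. All 5 genes lay above the filter on dim probe sets and were among the 12082 genes tested, out of 18193 with such a probe set. Slc4a1 and Bpgm had 3 probe sets each, and Alas2, Slc25a37 and Hba-a1 had 1 each. Another 4 probe sets carry a member's symbol together with another gene's, and 3 of these are shared by Hba-a1 and its sister gene Hba-a2.

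The arrays came from the ventricles of female C57BL/6 mice, all of them ovariectomized at 8 weeks of age and then given an infusion by minipump for 4 weeks, with 5 samples in each of 4 groups. The groups received 16α-LE2, which the labels describe as an agonist of estrogen receptor α, 17β-estradiol, the natural ligand of estrogen receptors α and β, or a placebo solution, and a further group is titled beta although its treatment label says control solution. The last is called the beta-titled group here and was kept apart from placebo. Placebo animals are thus ovariectomized too, doses are not given, and the labels do not state in so many words that each sample is a separate animal, so that the p-values measure the spread between these samples.

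Red blood cells carry oxygen on hemoglobin, a tetramer of α-globin and β-globin chains that each hold a heme. Precursors in the marrow and spleen import iron into their mitochondria, make heme and globin in bulk, build the anion-exchange membrane of the mature cell and then expel the nucleus. The newly released cells, reticulocytes, still hold RNA for a short time, so blood within the vessels of a tissue adds globin and other late erythroid transcripts to the tissue's RNA. In such bulk RNA, fewer red cells and less RNA per red cell cannot be told apart. Ventricle muscle itself was plainly present on every array. The mean of 9 cardiomyocyte markers ran from 13.97 to 14.11 log2 units with 16α-LE2 and from 13.96 to 14.26 with estradiol. It ran from 13.84 to 14.11 in the beta-titled group and from 13.89 to 14.22 with placebo. The deposited values of all probe sets run from 5.07 to 15.31.

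Sequences just upstream of the genes are shown as a description, and whether they bear on the levels of the members was not tested. RefSeq's table for GRCm38.p6 holds 3 of the 5 members, and the 250 bases before each gene's start are printed 5′ to 3′ on the plus strand. They lie at chrX:150547167-150547416 for Alas2, chr6:34476106-34476355 for Bpgm and chr11:32283422-32283671 for Hba-a1. Capitals mark the motifs searched on both strands: the GATA factor motif with the letters AGATAA and its variant TGATAA, the Krüppel-like factor motif CACCC, the box of letters CCAAT, and the start-site motif TATAAA. A motif on the other strand stands as its reverse complement.
Alas2: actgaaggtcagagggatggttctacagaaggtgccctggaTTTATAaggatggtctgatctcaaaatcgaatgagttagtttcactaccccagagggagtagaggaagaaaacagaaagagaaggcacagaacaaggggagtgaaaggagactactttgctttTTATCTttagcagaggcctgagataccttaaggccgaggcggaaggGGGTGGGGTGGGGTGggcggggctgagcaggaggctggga
Bpgm: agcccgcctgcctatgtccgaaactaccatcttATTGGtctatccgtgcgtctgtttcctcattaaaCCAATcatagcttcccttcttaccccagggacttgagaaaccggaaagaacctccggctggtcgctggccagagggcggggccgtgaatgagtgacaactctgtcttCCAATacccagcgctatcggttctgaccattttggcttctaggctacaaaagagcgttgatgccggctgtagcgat
Hba-a1: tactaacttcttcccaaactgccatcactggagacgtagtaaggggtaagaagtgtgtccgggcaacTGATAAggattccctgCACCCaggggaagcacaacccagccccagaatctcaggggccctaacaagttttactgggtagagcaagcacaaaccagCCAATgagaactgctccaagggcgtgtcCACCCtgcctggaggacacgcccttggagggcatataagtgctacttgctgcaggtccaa

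The Alas2 window holds 1 GATA motif, 3 CACCC motifs and 1 TATAAA, all on the other strand. The Hba-a1 window holds 1 GATA motif, 2 CACCC motifs and 1 CCAAT, and the Bpgm window holds 3 CCAAT motifs and no GATA or CACCC motif. Among 32851 windows of this length, 16.6% hold the GATA motif, 52.0% CACCC, 33.8% CCAAT and 12.4% TATAAA, so these matches describe the letters and mark no site. The Hba-a1 window and that of Hba-a2 carry the same bases at 247 of 247 aligned positions.

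The comparison of 16α-LE2 with placebo asked what receptor α stimulation did to the ventricle. Slc4a1, the anion exchanger band 3 of the red cell membrane, was the member that passed the test. It was 1.49-fold higher in 16α-LE2 ventricles than in placebo ventricles. Alas2, Slc25a37 and Bpgm were also higher, by 1.93-fold, 1.56-fold and 1.43-fold. They did not pass the test, with more spread among the 16α-LE2 arrays. Whether the members differed from one another in this was not tested. The single probe set annotated to Hba-a1 alone differed by 0.06 log2 units. It lay near the median signal of the arrays, in the dim part of the signal range, while the probe sets shared by Hba-a1 and Hba-a2 lay near the top. Of the 5 members, 1 was called by limma at an adjusted p under 0.05, where 0.223% of the 12082 genes were called in either direction and 0.0248% were called higher. At an unadjusted p under 0.05, 4 of the 5 members were higher, against 1.21% of all genes. The members were chosen with earlier results of these data known and share the arrays. These counts, and the like counts in the other comparisons, are therefore descriptions and no test of the members as a set.

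**Figure D1:**
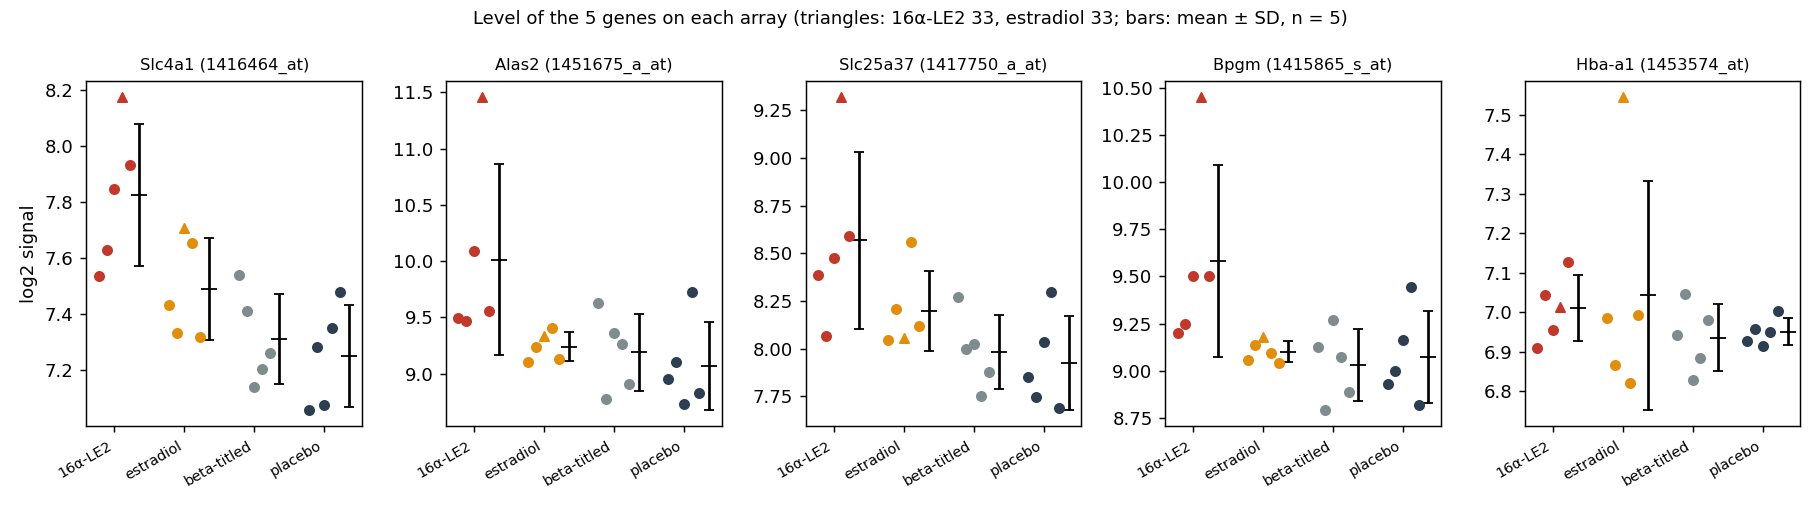
Log2 signal (vertical axes, each with its own range) of the probe set used for each of the 5 genes on each of 20 arrays (points; triangles are 16α-LE2 and estradiol replicates 33) in 4 groups, with bars for the mean ± SD. Replicate 33 of 16α-LE2 is the highest array for Slc4a1, Alas2, Slc25a37 and Bpgm, and estradiol replicate 33 is the highest for Hba-a1 at 7.55.

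Slc4a1 exchanges chloride for bicarbonate and anchors the spectrin skeleton in the red cell membrane. On its brightest probe set it stood at 7.53, 7.63, 7.85, 8.17 and 7.93 log2 units in the 16α-LE2 samples (replicates 29, 30, 32, 33 and 34) and at 7.06, 7.28, 7.08, 7.35 and 7.48 in the placebo samples (replicates 31, 32, 33, 34 and 36). All 16α-LE2 values lay above all placebo values, which holds for 0.579% of the genes tested. The group means were 7.82 ± 0.25 with 16α-LE2 and 7.25 ± 0.18 with placebo (SD, n = 5 each), a log2 difference of 0.57 ± 0.11 (SE; 95% interval 0.34 to 0.81; limma adjusted p = 0.0256). The call was lost in 9 of 31 other settings, over which the limma adjusted p ran between 0.00116 and 0.127. Among these, it was lost without 16α-LE2 replicate 33 (difference 0.49, limma adjusted p = 0.0955), 32 (0.0672) or 34 (0.0808), and without placebo replicate 31 (0.127), 32 (0.0518) or 33 (0.0865).

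The other Slc4a1 probe sets split. The dimmest, whose mean of 6.31 is below the filter, ran from 6.37 to 7.62 with 16α-LE2 and from 5.90 to 6.19 with placebo. It was called in the fit of all 45037 probe sets, where 24 or 0.0533% were called, with a difference of 0.80 ± 0.14 (SE; limma adjusted p = 0.031). Without 16α-LE2 replicate 33 that difference was 0.60 (limma adjusted p = 0.016). The third differed by 0.01 log2 units, and its signal sat on average at percentile 52.4 of an array. The brightest probe set had a limma adjusted p of 0.0568 in the same fit.

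Alas2 is the erythroid 5-aminolevulinate synthase, the first and rate-limiting enzyme of heme synthesis in red cell precursors. It stood at 9.49, 9.47, 10.09, 11.46 and 9.56 log2 units in the 16α-LE2 samples and at 8.95, 9.11, 8.73, 9.72 and 8.83 in the placebo samples. The 16α-LE2 replicates 32 and 33 lay above every placebo sample, while the other 3 lay below placebo replicate 34, so the groups overlapped. The difference was 0.95 ± 0.27 (SE; 95% interval 0.38 to 1.51), the largest of the 5 members, and did not pass the test (limma adjusted p = 0.173). Without 16α-LE2 replicate 33 it was 0.59 (limma adjusted p = 0.301).

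Slc25a37, or mitoferrin 1, brings iron across the inner mitochondrial membrane for heme synthesis. It stood at 8.39, 8.07, 8.48, 9.32 and 8.59 log2 units in the 16α-LE2 samples and at 7.85, 7.75, 8.03, 8.30 and 7.69 in the placebo samples. Of the 16α-LE2 samples, 4 of 5 lay above every placebo sample. The difference was 0.64 ± 0.17 (SE; limma adjusted p = 0.129), and 0.46 without 16α-LE2 replicate 33 (limma adjusted p = 0.257). It passed the test when noisy arrays were given less weight (limma adjusted p = 0.0385). The weights were 2.16 for 16α-LE2 replicate 33, 0.67 for 16α-LE2 replicate 29 and 0.08 for estradiol replicate 33. They thus did not lessen the part of 16α-LE2 replicate 33, the highest sample for Slc25a37. The gene also passed when placebo and the beta-titled group were pooled (limma adjusted p = 0.0441).

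Bpgm makes 2,3-bisphosphoglycerate, which lowers the affinity of hemoglobin for oxygen in the mature red cell. Its brightest probe set stood at 9.20, 9.25, 9.50, 10.45 and 9.50 log2 units in the 16α-LE2 samples and at 8.93, 9.0, 9.16, 9.45 and 8.82 in the placebo samples. The 16α-LE2 replicates 32, 33 and 34 lay above every placebo sample and the other 2 lay within the placebo range. The difference was 0.51 ± 0.17 (SE; limma adjusted p = 0.282), and 0.29 without 16α-LE2 replicate 33 (limma adjusted p = 0.518). The differences of its other probe sets were 0.43 and 0.50 log2 units, so its 3 probe sets ran alike.

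Hba-a1 encodes adult α-globin, and Hba-a2 encodes the same kind of chain. The probe set annotated to Hba-a1 alone stood at 6.91, 7.04, 6.96, 7.01 and 7.13 log2 units in the 16α-LE2 samples and at 6.93, 6.96, 6.91, 6.95 and 7.0 in the placebo samples. The groups overlapped, and the difference was 0.06 ± 0.09 (SE; 95% interval -0.13 to 0.25; limma adjusted p = 0.913). Its signal lay between percentiles 46.2 and 66.7 of an array, with a mean percentile of 51.9, and its mean of 6.98 was just above the filter at 6.93. Because the signals of different probe sets depend on their probes, such a percentile places the signal within the array and is no measure of transcript abundance.

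The α-globin probe sets shared by Hba-a1 and Hba-a2 lay near the top of the signal range. Their means were 14.49, 14.39 and 13.08 log2 units, and a β-globin probe set carrying 4 symbols had a mean of 14.19. The brightest was on average 0.293 log2 units below the highest value on its array and the next 0.389 below, while the dimmest of the 3, called the third α-globin probe set here, was 1.69 below. The probe set of Hba-a2 alone had a mean of 6.15, at percentile 12.6. The high adult α-globin signals were thus those of probe sets that carry both symbols and cannot separate the sister genes.

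The third α-globin probe set stood at 13.01, 13.07, 13.38, 14.14 and 13.50 log2 units in the 16α-LE2 samples and at 12.81, 12.88, 12.86, 13.35 and 12.73 in the placebo samples. It was high in the same 16α-LE2 sample, replicate 33, as Alas2, Slc25a37 and Bpgm. The difference was 0.49 ± 0.16 (SE; limma unadjusted p = 0.00419 and adjusted p = 0.421 over all probe sets), and 0.31 without that replicate. The brighter ones differed by 0.18 ± 0.10 and 0.16 ± 0.10, and the β-globin probe set with 4 symbols by 0.17 ± 0.11 (SE). Hbb-b2, a β-globin gene, stood on its brighter probe set at 11.54, 11.85, 12.20, 13.39 and 12.27 in the 16α-LE2 samples and at 11.74, 11.49, 11.65, 11.90 and 11.60 in the placebo samples, a difference of 0.57 ± 0.20 (SE; limma adjusted p = 0.339) that was 0.29 without 16α-LE2 replicate 33. Its other probe set differed by -0.15. Hba-x, an embryonic α-like globin, differed by 0.09 ± 0.09 (SE; limma adjusted p = 0.862).

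**Figure D2:**
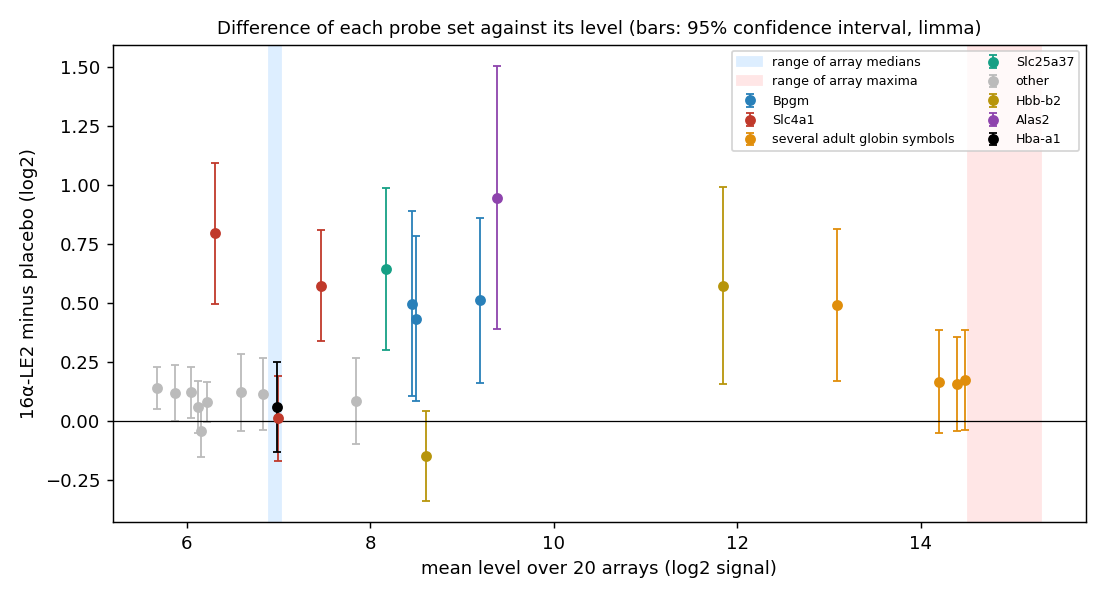
Difference between 16α-LE2 and placebo (log2, vertical axis) of each erythroid and globin probe set against its mean log2 level over 20 arrays (horizontal axis), with 95% confidence intervals as bars. The shaded bands are the ranges of the array medians and maxima, and the points called other are further globin and member probe sets. The Hba-a1 probe set lies at 6.98 with a difference of 0.06, the brightest shared α-globin probe sets lie above 14 with differences of 0.16 and 0.18, and the late erythroid genes lie between these levels with differences of 0.51 to 0.95 on the probe sets used.

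The contrast of late erythroid and globin transcripts was taken per array as the mean of Slc4a1, Alas2, Slc25a37 and Bpgm, each relative to its placebo mean, minus the same for a globin probe set. The late erythroid mean alone was 0.67 ± 0.50 with 16α-LE2, 0.18 ± 0.12 with estradiol, 0.05 ± 0.17 in the beta-titled group and 0 ± 0.21 with placebo (log2 units relative to placebo, SD, n = 5 each). It ran from 0.28 to 1.52 with 16α-LE2 and from -0.13 to 0.38 with placebo, so the groups overlapped. Minus Hba-a1, it was 0.37, 0.18, 0.65, 1.46 and 0.39 in the 16α-LE2 samples and -0.11, -0.05, -0.04, 0.38 and -0.18 in the placebo samples. The difference between these groups was 0.61 log2 units, given as a description because the members were chosen with these results known. It is close to the difference of the late erythroid mean alone, 0.67, since the Hba-a1 probe set differed by 0.06. Whether that probe set, dim and near the array median, measures adult α-globin in these samples was not tested.

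That contrast depended on the globin probe set. It was 0.42 with the mean of the 4 probe sets of several globin symbols, 0.43 with the mean of the globin genes above the filter, 0.18 with the third α-globin probe set and 0.09 with Hbb-b2. The value was thus smallest with the globin probe sets at means of 13.08 and 11.84 and largest with the one at 6.98. Without 16α-LE2 replicate 33 the contrast with Hba-a1 was 0.40, and leaving out any 1 of the 4 late erythroid genes gave 0.52 to 0.66. Whether probe sets near the array maximum were saturated was not tested, since the deposited table holds no saturation marks.

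**Figure D3:**
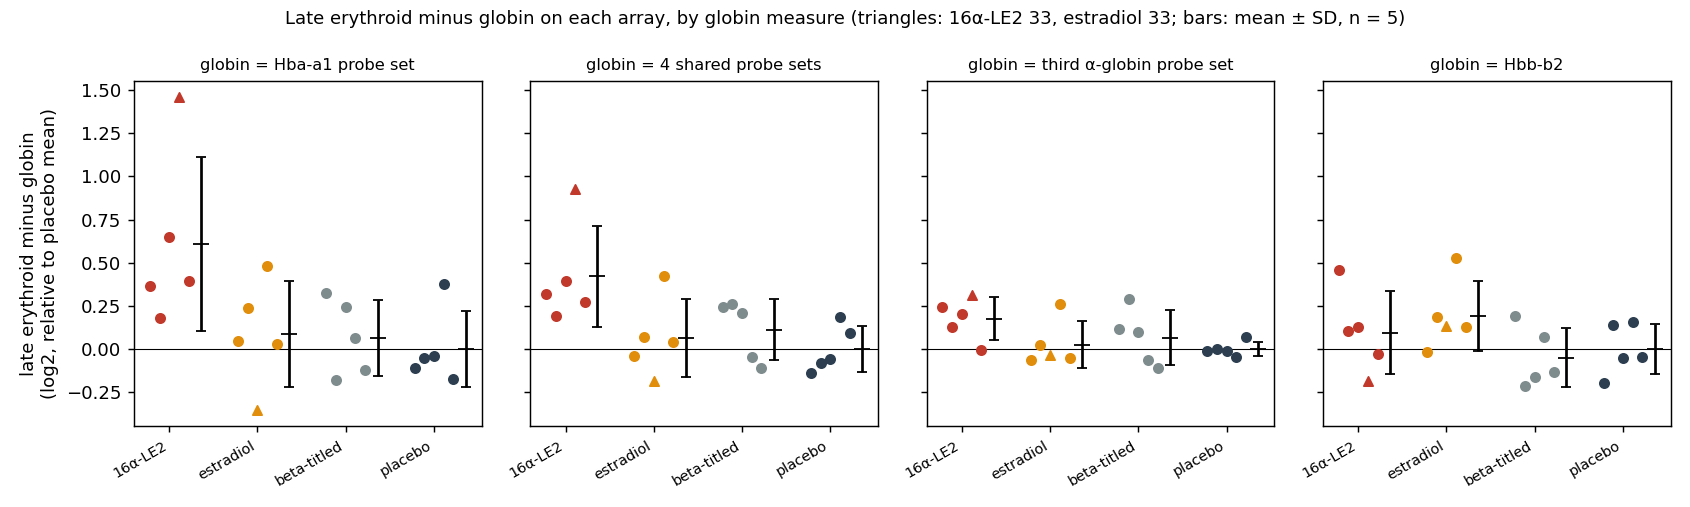
Late erythroid mean minus globin (log2 units relative to placebo) on each of 20 arrays, in a panel for each choice of the globin probe set, with bars for the mean ± SD of each group (n = 5). The mean difference between 16α-LE2 and placebo is 0.61 with Hba-a1, 0.18 with the third α-globin probe set and 0.09 with Hbb-b2.

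Across the 20 arrays the 4 late erythroid genes ran together, and the probe set of Hba-a1 alone did not run with 3 of them. Alas2 and Bpgm had a Pearson r of 0.95 (Spearman rho 0.83; permutation p = 1e-05, the smallest that 100000 permutations can give, adjusted p = 0.0001 over 10 pairs). Without 16α-LE2 replicates 33 and 32, the samples farthest from the median of Alas2, that r was 0.79. Slc25a37 had r of 0.87 with Bpgm and 0.87 with Alas2, and Slc4a1 had r of 0.79 with Slc25a37, 0.76 with Alas2 and 0.70 with Bpgm. Without 16α-LE2 replicates 33 and 34, r was 0.64 for Slc25a37 with Bpgm, 0.57 for Slc4a1 with Slc25a37 and 0.62 for Slc4a1 with Alas2. For Alas2 with Slc25a37 it was 0.66 without 16α-LE2 replicates 33 and 32. The r of Slc4a1 and Bpgm rests on few samples, since it was 0.35 without 16α-LE2 replicates 33 and 34. Group differences enter these values, and as deviations from the group means Alas2 and Bpgm still had r of 0.92, while Slc4a1 and Bpgm had 0.47. The genes of a pair share the arrays and their labelling.

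The Hba-a1 probe set had r of 0.04 with Alas2, 0.07 with Bpgm and 0.01 with Slc25a37, with adjusted permutation p of 0.865 to 0.978. With Slc4a1 it had r of 0.39 and rho of 0.48 (permutation p = 0.0884 and 0.0351; adjusted p = 0.126 and 0.0501). The late erythroid mean had r of 0.94 with the third α-globin probe set (0.84 without 16α-LE2 replicates 33 and 32), 0.88 with Hbb-b2 (0.48 without these), 0.57 to 0.63 with the 3 brightest globin probe sets, and 0.11 with Hba-a1 (permutation p = 0.574; 0.17 without these; 6 globin probe sets set against it, adjusted over the 6). The r with Hbb-b2 thus rests in part on those 2 samples. So does the r with the 3 brightest globin probe sets, which was 0.39 to 0.42 without them.

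**Figure D4:**
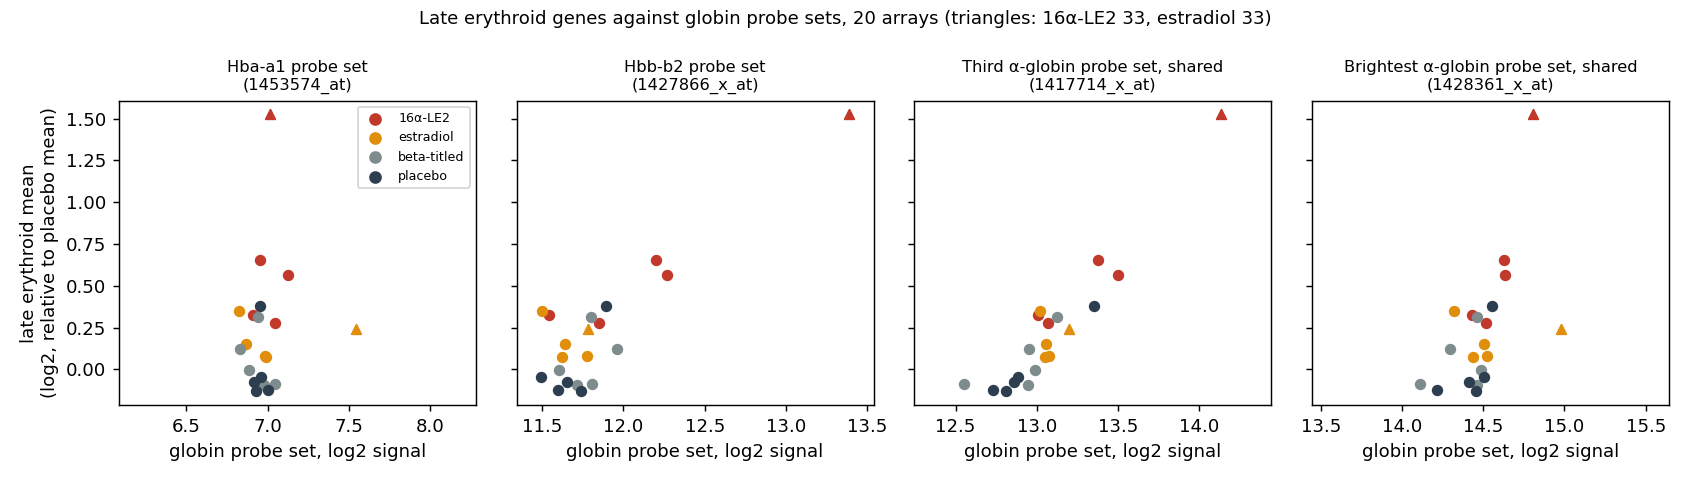
Late erythroid mean (log2 units relative to placebo, vertical axis) against globin signal (log2, horizontal axis) on 20 arrays, with a panel for each of 4 globin probe sets and triangles for 16α-LE2 and estradiol replicates 33. Points follow a line for the third α-globin probe set (r = 0.94) and none for Hba-a1 (r = 0.11), where estradiol replicate 33 stands alone to the right at 7.55.

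The spread of the Hba-a1 probe set came largely from estradiol replicate 33, where it was 7.55, against 6.82 to 7.13 on the other 19 arrays. The third Slc4a1 probe set, also near the array median, was at 7.52 on the same array. The pair had r of 0.90 over all arrays and 0.58 without that array. The 5 genes with patterns most like Hba-a1 were Gm732, 4933413J09Rik, Csn2, Insm2 and 1110028F11Rik, each with r of 0.96 over 20 arrays and 0.83 to 0.86 without estradiol replicate 33. Csn2 encodes a milk casein and Insm2 a zinc finger protein, and none of the 5 is in the erythroid lists. Each of these was also highest on estradiol replicate 33, as Csn2 was with 8.69 there and 7.54 to 7.83 elsewhere. That array had Spearman correlations of 0.922 to 0.941 with the others, where all other pairs had 0.978 to 0.992.

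The genes with patterns most like the late erythroid mean included genes of the erythroid lists and genes outside them. Tent5c, a poly(A) polymerase, and Isg20, an exonuclease, each had r of 0.93 over 20 arrays and 0.83 and 0.80 without 16α-LE2 replicate 33. They were followed by Hbb-b2 (r = 0.88), the carbonic anhydrase Car2 (0.85), the surface glycoprotein Cd24a (0.80), the neutrophil granule protein Ngp (0.79), the protease Ctse (0.79) and Trim68 (0.75). Without that replicate the r was lower, at 0.61 for Hbb-b2, 0.64 for Car2, 0.46 for Cd24a, 0.49 for Ngp, 0.44 for Ctse and 0.63 for Trim68. The likeness of these genes thus rests in part on 1 array. Of these 8 genes, Isg20, Hbb-b2, Car2 and Cd24a are in the erythroid lists. None was called between 16α-LE2 and placebo, the lowest limma adjusted p being 0.066 for Tent5c at a difference of 0.94.

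The late erythroid genes lay nearer to placebo in the other groups. Slc4a1 was 7.43, 7.33, 7.71, 7.65 and 7.32 with estradiol (replicates 29, 30, 33, 34 and 35) and 7.54, 7.41, 7.14, 7.20 and 7.26 in the beta-titled group (replicates 31, 32, 33, 35 and 36). Alas2 was 9.11, 9.24, 9.33, 9.40 and 9.13 with estradiol and 9.63, 8.78, 9.36, 9.27 and 8.91 in the beta-titled group. Both genes overlapped the placebo values in both groups. Slc25a37 ran from 8.05 to 8.56 with estradiol and from 7.75 to 8.27 in the beta-titled group, and Bpgm from 9.04 to 9.18 and from 8.79 to 9.27. The Hba-a1 probe set ran from 6.82 to 7.55 with estradiol and from 6.83 to 7.05 in the beta-titled group.

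By group mean, Slc4a1 ordered as 16α-LE2 (7.82), estradiol (7.49), the beta-titled group (7.31) and placebo (7.25), and each neighbouring pair of ranges overlapped. Alas2 (10.01, 9.24, 9.19 and 9.07) and Slc25a37 (8.57, 8.20, 7.98 and 7.92) had the same order, and Bpgm had 9.58 with 16α-LE2, 9.10 with estradiol, 9.03 in the beta-titled group and 9.07 with placebo. For these genes the ranges of estradiol, the beta-titled group and placebo overlapped. For Hba-a1 the means were 7.01, 7.04, 6.94 and 6.95, and no neighbours differed beyond their spread.

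Against placebo, no member was called by limma with estradiol, where 0% of the 12082 genes were called and 9.63% had an unadjusted p under 0.05, and none in the beta-titled group, where 0% were called and 5.70% had an unadjusted p under 0.05. Slc4a1 with estradiol was the member with an unadjusted p under 0.05, at a difference of 0.24 ± 0.11 (SE; limma adjusted p = 0.499). The other differences with estradiol were 0.17 for Alas2, 0.27 for Slc25a37, 0.03 for Bpgm and 0.09 for Hba-a1. With 16α-LE2 replicate 33 left out of the fit, these differences were the same. The limma unadjusted p was then 0.0302 for Slc4a1 and 0.0427 for Slc25a37, so which members passed that level depended on this array. In the beta-titled group the 5 differences lay between -0.04 and 0.12 log2 units. These comparisons and that of 16α-LE2 share the placebo arrays.

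The agonists were compared directly, at the same duration and at doses that are not given. Of the members, 0 were called by limma between 16α-LE2 and estradiol, where 2 genes or 0.0166% were, and 4 had an unadjusted p under 0.05 and were higher with 16α-LE2, as were 2.27% of all genes. The differences were 0.33 ± 0.11 for Slc4a1 (SE; 95% interval 0.10 to 0.57; limma adjusted p = 0.716), 0.77 ± 0.27 for Alas2 (0.21 to 1.34; adjusted p = 0.746), 0.37 ± 0.17 for Slc25a37 (0.03 to 0.71; adjusted p = 0.875) and 0.48 ± 0.17 for Bpgm (0.13 to 0.83; adjusted p = 0.76). Alas2 and Bpgm were higher on all 16α-LE2 arrays than on all estradiol arrays, as were 0.166% of the genes tested. Without 16α-LE2 replicate 33 the differences were 0.25 for Slc4a1, 0.41 for Alas2, 0.18 for Slc25a37 and 0.26 for Bpgm, and 3 of the 4, all but Slc25a37, still had an unadjusted p under 0.05. Hba-a1 differed by -0.03 (95% interval -0.22 to 0.16), and by 0.09 without estradiol replicate 33.

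Against the beta-titled group, 16α-LE2 had 0 called members where 21 genes or 0.174% were called by limma, and 4 members had an unadjusted p under 0.05 in the higher direction, as did 2.76% of genes. The differences were 0.51 for Slc4a1 (limma adjusted p = 0.0697), 0.83 for Alas2, 0.58 for Slc25a37, 0.55 for Bpgm and 0.07 for Hba-a1. Without 16α-LE2 replicate 33 they were 0.42 for Slc4a1 (limma adjusted p = 0.263), 0.46 for Alas2, 0.40 for Slc25a37 and 0.33 for Bpgm. Slc4a1 passed the test there when noisy arrays were given less weight (limma adjusted p = 0.00801). Those weights gave 2.16 to 16α-LE2 replicate 33, the highest sample for Slc4a1. It also passed without 16α-LE2 replicate 29 (limma adjusted p = 0.0315) and without estradiol replicate 33 (0.046). Between estradiol and the beta-titled group 0 members were called, with 0% of genes called and 3.83% at an unadjusted p under 0.05, and the 5 differences lay between 0.05 and 0.21.

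Across wider lists of erythroid genes, differences between 16α-LE2 and placebo ran both ways and 1 gene was called. Of 3 globin genes tested, 3 were higher and 0 were called, with a median difference of 0.09 log2 units, against -0.03 over all genes, of which 40.3% were higher. Of 8 heme synthesis genes, 3 were higher and 0 called (median -0.04), and Urod, uroporphyrinogen decarboxylase, the brightest of them, differed by -0.03. Fech, ferrochelatase, which puts the iron into heme, differed by 0.05 and was also the brightest of 9 late erythroid and reticulocyte genes, of which 7 were higher and 0 called (median 0.07). Of 9 genes of the red cell membrane and cytoskeleton, 4 were higher and 1, Slc4a1, was called (median -0.03), while the water channel Aqp1, which endothelium also makes, differed by -0.55 ± 0.14 (SE; limma adjusted p = 0.134).

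Of 10 genes of erythroid iron handling, 7 were higher and 0 called (median 0.03), and Fth1, the ferritin heavy chain, differed by 0.04. Of 11 red cell enzyme genes, 6 were higher and 0 called (median 0.06), with the glycolytic aldolase Aldoa at 0.12. Of 9 erythroid transcription factor genes, 4 were higher and 0 called (median -0.01), with Lmo2 at -0.23 (limma adjusted p = 0.605). No gene of these lists was called in any of the other 5 comparisons. Many of these genes are also transcribed in heart muscle or vessels, so their levels do not belong to red cells alone. Of 14 red cell markers, 8 had a probe set of their own and 4 lay above the filter, with Hba-a2, Epb42, Car1 and Rhag below it.

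Marker lists of other cell types were set beside the red cell genes for 16α-LE2 against placebo, and only Col3a1 was called in them. Of 5 neutrophil markers tested, 5 were higher than with placebo, 3 of them at an unadjusted p under 0.05 and 0 called by limma (median 0.32), and their mean level ran from 7.61 to 8.68 log2 units with 16α-LE2, 7.73 to 8.10 with estradiol, 7.32 to 8.09 in the beta-titled group and 7.32 to 7.91 with placebo. The 16α-LE2 replicates 33 (8.68) and 32 (8.48) lay above every placebo array, and the group medians were 7.81 with 16α-LE2, 7.97 with estradiol, 7.47 in the beta-titled group and 7.55 with placebo. Of 6 platelet markers, 6 were higher and 0 called (median 0.22), with mean levels of 7.82 to 9.07 with 16α-LE2, 7.71 to 8.45 with estradiol, 8.06 to 8.73 in the beta-titled group and 7.78 to 8.68 with placebo. The 16α-LE2 replicates 33 (8.96) and 34 (9.07) lay above every placebo array and the other 3 between 7.82 and 7.87, and the group medians were 7.87 with 16α-LE2, 8.14 with estradiol, 8.40 in the beta-titled group and 7.88 with placebo. Of 9 macrophage markers 7 were higher (median 0.02), of 9 cardiomyocyte markers 3 were (median -0.05), and the 1 lymphocyte marker tested was (0.01), with 0 called in each. Of 10 endothelial markers, 1 was higher and 8 were lower at a limma unadjusted p under 0.05, with 0 called (median -0.31). Of 8 fibroblast markers 0 were higher, 5 were lower at a limma unadjusted p under 0.05, and 1, Col3a1, was called lower (median -0.32). Over all genes, 9.01% had such an unadjusted p in either direction and 1.21% in the higher direction. The part of these cell types in the red cell gene differences was not tested.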

How the data were processed

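Ventricle RNA (100 ng per sample) was measured on 20 Affymetrix mouse arrays, 5 in each of 4 groups taken from the sample titles. The deposited values are read as log2 signals, 1 for each of 45101 probe sets, but which log base, summarization and normalization the authors used is not given in the labels or the file. A step of 1 is taken as 2-fold on that reading. The files carry no background or saturation measure, and the number of arrays limits the precision.

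For the tests, 64 control probe sets were removed and genes were named from GEO's platform annotation (1 symbol for 34945 probe sets, several for 932, none for 9160). Each gene was represented by its probe set of highest mean, if above the median of all probe sets (6.93). One limma fit (version 3.58.1, R 4.3.3; group means, eBayes with trend) took in all 20 arrays, with Benjamini-Hochberg adjusted p under 0.05 over 12082 genes. A second fit covered 45037 probe sets without a filter. The members and gene lists were chosen with earlier results of these data known. Genes named were the members, called genes of the erythroid lists, the brightest gene of each such list, globin genes above the filter, and the 8 and 5 genes of most similar pattern. The probe sets of several globin symbols, and the pair of arrays left out together, were added after seeing the data. Other settings tried were the filter, probe-set summary, scaling, array weights, groups fitted, replicate block, pooled controls, and each array left out. The fit was tested on simulated data.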

Additional observations from a re-analysis of the deposited data

Results flagged for a closer look

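In the 20 combinations of a gene and a group that were checked, 2 held a sample far from the other 4, where chance gives about 1 in 20. Bpgm was 10.45 log2 units on 16α-LE2 replicate 33, with the next sample at 9.50, a gap of 0.755 of the group's range. Hba-a1 was 7.55 on estradiol replicate 33, with the next sample at 6.99, a gap of 0.766 of the range.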

How the results depend on the processing

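Replicate numbers gave no clear pairing of the samples: deviations of 17 same-numbered pairs had correlations of -0.35 to 0.51, 6 of them over 0.1. Their median was -0.02, against 0.009 for other pairs across groups, which does not exclude a pairing. With the number as a replicate block, Slc4a1 in 16α-LE2 against placebo had a difference of 0.72 (limma adjusted p = 0.0089), and 4 genes in place of 2 were called against estradiol.

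Between 16α-LE2 and placebo, 27 genes and 1 member were called. With probe sets averaged per gene 16 genes and 0 members were called, with array weights 357 and 2, with estradiol replicate 33 left out and array weights 268 genes, and with pooled controls 71 and 2. Members called were 0 with every probe set tested, a filter at the 75th percentile, the 2 groups alone, and 16α-LE2 and estradiol replicates 33 left out together. With averaged probe sets and the stricter filter Slc4a1 lay below the filter and was not tested. Each array left out in turn gave 8 to 74 genes and 0 to 1 members, with 8 without placebo replicate 31 and 74 without estradiol replicate 33. Elsewhere the cause of a change was not tested.

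Against estradiol, 2 genes were called, 0 with averaged probe sets or both replicates 33 left out, 4 with every probe set tested, no filter or the 75th percentile, 20 with array weights, 10 without estradiol replicate 33 and with weights, and 0 to 11 with an array left out. Against the beta-titled group, 21 were called, 32 after quantile normalization, 13 with arrays centred on the median, 122 with weights, 46 with the 2 groups alone, 80 without estradiol replicate 33 and with weights, and 7 to 37 with an array left out. Members called there were 0, and 1 with weights, with estradiol replicate 33 left out as well or not, and 0 to 1 with an array left out. Estradiol against placebo or the beta-titled group gave 0 to 1 genes with an array left out. The late erythroid contrast of 0.61 was 0.0948 with Hbb-b2, 0.176 with the third α-globin probe set and 0.397 to 0.717 with an array left out.

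Some uncalled differences near 0 changed sign. With an array left out, Bpgm ran from -0.105 to 0.0519 in the beta-titled group against placebo and from -0.0326 to 0.124 with estradiol against placebo. It was 0.0665 after quantile normalization in the first and -0.00504 with median centring in the second comparison. Slc25a37 ran from -0.0118 to 0.153 in the beta-titled group against placebo, and Alas2 from -0.0512 to 0.162 with estradiol against the beta-titled group. Hba-a1 ran from -0.0342 to 0.147 with estradiol against placebo, from -0.0876 to 0.0933 with 16α-LE2 against estradiol, from -0.0193 to 0.162 with estradiol against the beta-titled group and from -0.0427 to 0.0122 in the beta-titled group against placebo. With array weights it was -0.0155 in the first and 0.0846 in the second of these. With weights and without estradiol replicate 33, it was -0.0322, 0.101 and -0.00743 in the first 3. With both replicates 33 left out it was -0.0342, 0.0922 and -0.0193.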
